A study of Mus musculus with 36 samples.

Results

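Intestines of E18.5 mouse embryos that lacked Cflar, Mlkl, Casp1 and Ifnar1 and carried the D387A knock-in of Casp8 were compared with intestines of Mlkl knockout embryos of the same age. The samples were chosen by genotype in the sample labels, and the 6 libraries, 3 embryos of each genotype, belong to the 18 libraries of the D387A intestine set and to the 36 libraries of the series. The first group, called Ifnar1-deficient here, had the D387A allele of Casp8 and knockout (KO) alleles of Cflar, Mlkl, Casp1 and Ifnar1. The second group, called Mlkl control here, had only the KO of Mlkl, which is therefore shared by both groups. All alleles were germline, so every cell of the embryo and not only the epithelium carried them, and the background was C57BL/6N. Because 4 alleles separate the groups at once, this comparison cannot assign a difference to any one of them. The groups that lie between, Casp8 D387A with KO of Cflar and Mlkl (Cflar Mlkl double-deficient) and the same with KO of Casp1 (Casp1-deficient), had 3 embryos each at the same age. The titles of the Ifnar1-deficient and the control samples start with different numbers, whose meaning is not given in the sources used here, nor is it given whether these embryos were littermates or were sequenced together. A litter or sequencing run that coincides with genotype therefore cannot be told apart from it. Every autosomal gene that passed a filter on low counts, 17640 in all, was described.

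Caspase-8 and its partner cFLIP, encoded by Cflar, form dimers that restrain necroptosis, the lytic death carried out by MLKL, and that can also drive apoptosis. The D387A change replaces an aspartate at which caspase-8 cuts itself. Caspase-1 is the protease of inflammasomes, which matures interleukin-1 beta and interleukin-18 and opens gasdermin D pores. Ifnar1 encodes a subunit of the receptor for type I interferons, whose signal runs through JAK kinases, STAT factors and IRF9 to promoters with an interferon-stimulated response element. Type III interferons use IFNLR1 and IL10RB, a receptor pair prominent on gut epithelium, and engage the same transcription factor complex, whereas interferon gamma acts through IFNGR1 and IFNGR2.

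The promoters of Cxcl10, Oas3 and Gbp3 are shown because these genes stand for the chemokines, the antiviral enzymes and the guanylate-binding proteins of the comparison and each holds such an element. The 250 bases before the start are from RefSeq, build GRCm38.p6, and capitals mark the core of the element, GAAA followed by any pair of bases and GAAA again, or its reverse complement, TTTC followed by any pair and TTTC, and matches may overlap one another. Of 32851 windows of 250 bases in the promoter table, 978 or 2.98% held the motif on either strand, and a match is a description of letters only. The Cxcl10 window lay at chr5:92348890-92349139 on the minus strand, with the first base of the motif 213 bases before the start. The Oas3 window lay at chr5:120777660-120777909 on the minus strand, with the motif 75 bases before the start. The Gbp3 window lay at chr3:142559794-142560043 on the plus strand, with overlapping motifs 45 and 39 bases before the start.
Cxcl10: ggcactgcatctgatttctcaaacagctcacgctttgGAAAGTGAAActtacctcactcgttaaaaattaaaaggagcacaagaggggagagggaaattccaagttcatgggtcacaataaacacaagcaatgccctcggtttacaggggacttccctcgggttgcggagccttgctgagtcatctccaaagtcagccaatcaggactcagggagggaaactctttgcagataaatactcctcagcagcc
Oas3: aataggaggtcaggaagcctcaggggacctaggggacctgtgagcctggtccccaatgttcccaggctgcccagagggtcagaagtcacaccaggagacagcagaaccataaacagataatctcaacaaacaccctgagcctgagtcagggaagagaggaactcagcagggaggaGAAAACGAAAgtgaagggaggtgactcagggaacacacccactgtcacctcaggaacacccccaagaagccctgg
Gbp3: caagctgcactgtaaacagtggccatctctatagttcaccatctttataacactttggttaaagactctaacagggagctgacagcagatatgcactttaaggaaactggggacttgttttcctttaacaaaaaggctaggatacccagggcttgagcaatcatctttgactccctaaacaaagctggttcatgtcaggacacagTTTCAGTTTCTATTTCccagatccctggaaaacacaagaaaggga

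Between 19713382 and 25192084 reads fell on genes in the 6 libraries. Levels are given as RPKM, reads scaled by the width of the gene and by the size of the library, in the order of embryos 1, 2 and 3. Vil1 and Cdx2, which mark intestinal epithelium, were present in all 6 libraries (339.6 to 369.7 RPKM of Vil1 in the Ifnar1-deficient and 286.9 to 329.8 in the control embryos, and 122.4 to 136.4 against 134.2 to 154.5 RPKM of Cdx2), as the tissue label requires. The Ifnar1-deficient embryos were all male by their Y-linked reads, and among the controls embryo 2 alone was male. Ifnar1-deficient embryo 1 stood apart from the other two of its group. Its counts differed from theirs 32.6 and 37.2 times more than Poisson sampling gives, against 5.91 times between embryos 2 and 3 and 6.23 to 9.69 times between pairs of controls.

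The targeted genes were examined first, to check the labels as far as a count per gene can. Casp1 (chr9:5298517-5307265, GRCm38) was at 0.142, 0.0271 and 0.141 RPKM in the Ifnar1-deficient and at 41.5, 42.6 and 44.4 RPKM in the control embryos. Ifnar1 (chr16:91485238-91507441) was at 9.7, 8.5 and 8.79 RPKM against 21.1, 21.3 and 21.8 RPKM, and the other 15 libraries of the set lay between 19.5 and 23.9 RPKM. Casp1 was therefore almost absent, while Ifnar1 transcripts were reduced but plainly present, and a count per gene does not show which exons they hold. The log2 fold change (edgeR's quasi-likelihood test, adjusted over all genes) was -8.66 for Casp1 (SE 0.26, adjusted p = 8.88e-13) and -1.25 for Ifnar1 (SE 0.07, adjusted p = 1.16e-08). Mlkl (chr8:111311797-111338177), a KO in both groups, was at 22.9, 27.9 and 27.4 RPKM in the Ifnar1-deficient and at 2.44, 2.39 and 2.67 RPKM in the control embryos, a rise in reads from the disrupted locus of 3.38 on the log2 scale (SE 0.52, adjusted p = 5.76e-05). Casp8 was at 33.9, 33.3 and 39.6 against 25.9, 25.9 and 24.9 RPKM (log2 0.48) and Cflar at 6.64, 6.49 and 6.76 against 5.8, 6.42 and 6.02 RPKM (log2 0.12). Neither was called, and the counts do not show the D387A base change or the Cflar KO.

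A gene was called when its adjusted p was under 0.05 and its log2 fold change above 1 or below -1. In the Ifnar1-deficient intestine 1203 of 17640 autosomal genes were called higher, 6.82%, and 1005 were called lower, 5.7%, which together is 12.5%. The 3 embryos of one group lay outside the range of the other 3 for 57.1% of all genes, so such a separation is by itself common here, and for 12.2% a call and the separation held together. The median log2 fold change over all genes was -0.0034. With embryo sex as a covariate 1224 genes were called higher and 1012 lower. In bulk tissue fewer cells of a type and less RNA per cell cannot be told apart. Separate statements for 3 embryos a group rest on the spread between these embryos.

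**Figure D1:**
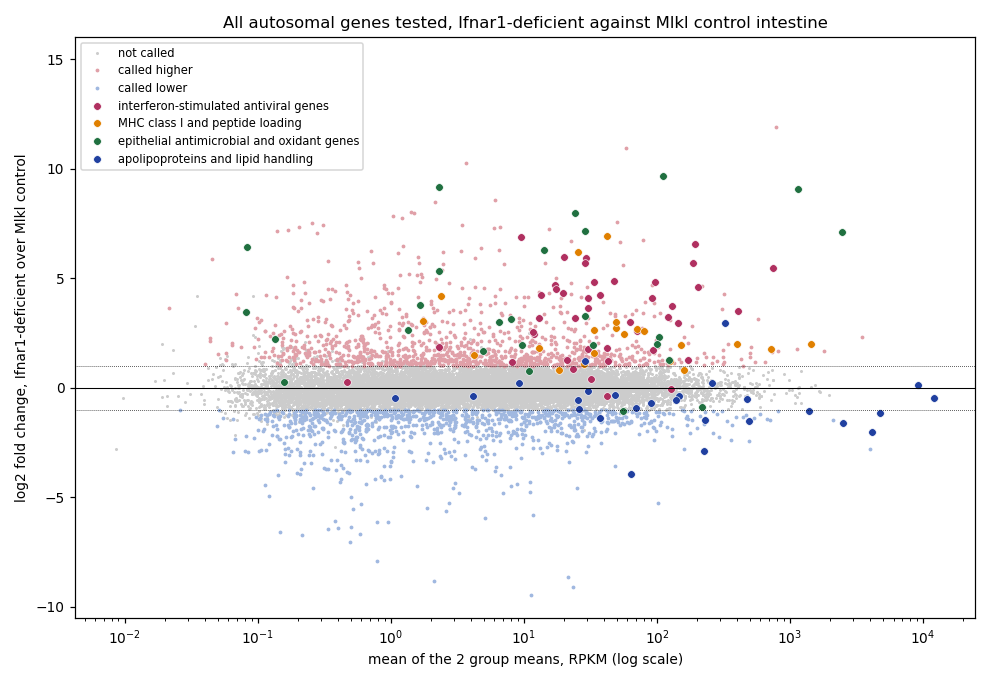
Each point is 1 of 17640 autosomal genes, with the mean of the group means in RPKM (log axis) against the log2 fold change of Ifnar1-deficient over Mlkl control intestine, and dotted lines at 1 and -1. The 37 called interferon-stimulated antiviral genes lie above the upper line, and 9 genes of lipid handling lie below the lower one.

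Antiviral genes that interferons induce were high in the embryos without Ifnar1. Of 42 tested members of the list of interferon-stimulated antiviral genes, 37 rose and 0 fell, with a median log2 fold change of 3.35, against 6.82% higher and a median of -0.0034 over all genes. Mx1, a GTPase that blocks viral replication, was at 47, 58.8 and 68.2 RPKM in the Ifnar1-deficient and at 0.685, 1.13 and 1.06 RPKM in the control embryos. Oas3, which makes the oligoadenylate that activates RNase L, was at 39.8, 35.2 and 42.8 against 0.342, 0.924 and 0.604 RPKM. Zbp1, a sensor of Z-form nucleic acid that can recruit RIPK3, was at 83.8, 89.6 and 101.3 against 2.59, 3.98 and 2.91 RPKM. For all 3 genes every Ifnar1-deficient embryo lay far above every control. The log2 fold changes were 5.92 for Mx1 (SE 0.62, adjusted p = 1.47e-06), 5.98 for Oas3 (SE 0.80, adjusted p = 1.43e-05) and 4.86 for Zbp1 (SE 0.76, adjusted p = 6.12e-05). Larger still were Apol9b, an apolipoprotein L family member at 16, 18.4 and 22.1 against 0.0979, 0.306 and 0.0647 RPKM (log2 6.90), and Ifit1bl1, an IFIT family gene at 240.4, 418 and 483 against 1.62, 4.55 and 6 RPKM (log2 6.55). The members not called included Samhd1, a nucleotide hydrolase that restricts viruses, at 29.9, 28.4 and 32 against 16.9, 17.1 and 16.5 RPKM (log2 0.84), and Ifitm1, a membrane protein that hinders viral entry, at 31.7, 37.9 and 38.8 against 27.1, 29.2 and 26.1 RPKM (log2 0.40).

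**Figure D2:**
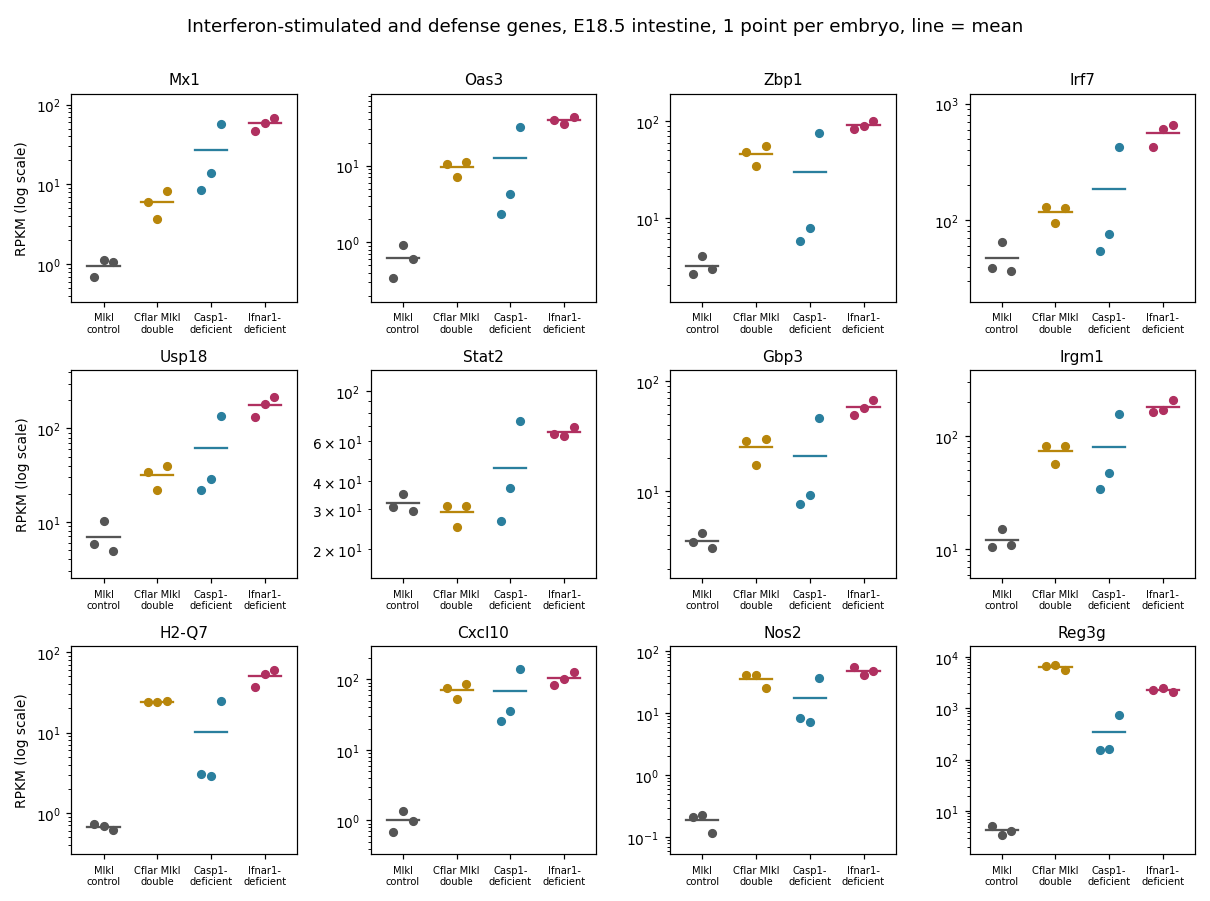
RPKM on log axes of 12 interferon-stimulated and defense genes in the 4 groups, with 1 point per embryo and a line at the group mean. The Ifnar1-deficient embryos lie above the Mlkl controls in every panel, and 1 Casp1-deficient embryo, embryo 3, lies above the other two of its group.

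Few reads came from the interferon genes. Ifnb1, the type I interferon beta, had 4, 2 and 8 reads in the Ifnar1-deficient and 0, 0 and 0 in the control embryos, and Ifnl2, a type III interferon, had 1, 2 and 7 against 0, 0 and 0 reads. Ifng had 0, 2 and 0 against 1, 0 and 0 reads, and Ifna1, Ifna4 and Ifna5 had 0 reads in all 6 libraries, which allows up to 3 reads over a group. All 10 interferon genes of the list were below the filter on low counts. Without that filter Ifnb1, with 14 reads against 0 over the group, was called higher (adjusted p = 0.0072, edgeR). Ifnl2, with 10 against 0, was called as well (adjusted p = 0.0306). With 3 reads in place of the 0, the ratio was 3.82 for Ifnb1 and 2.73 for Ifnl2. These ratios leave out the counting error of the 14 and 10 reads. In each fit that left out 1 of the 6 embryos Ifnb1 passed the filter and was called, whereas Ifnl2 stayed under the filter in all of them. The filter uses every library of the fit, and no Ifnar1-deficient library reached 10 reads of Ifnb1. Its level was 0.226, 0.108 and 0.451 RPKM in these embryos and reached 1.52 RPKM among the other 15 libraries of the set. Passing the filter therefore rested on libraries of other genotypes, and these calls add no separate support. Neither Ifnb1 nor Ifnl2 passed the filter in any other fit. Of the 6 receptor genes tested, Ifnar1 fell and the others were not called. Ifnlr1, the specific chain of the type III receptor, was at 7.24, 7 and 6.69 against 10.1, 9.72 and 9.78 RPKM (log2 -0.50), and its partner Il10rb at 50.5, 46 and 51.5 against 84.4, 83.5 and 77.6 RPKM (log2 -0.73). Both chains were thus present in every library and lower in each Ifnar1-deficient embryo than in each control. Ifngr1 was at 101.7, 118 and 120.4 against 59.5, 58.1 and 59.1 RPKM (log2 0.94), just under the threshold, and passed it without Ifnar1-deficient embryo 1 (log2 1.02) or with embryo sex as a covariate (log2 1.01). Ifngr2 (log2 0.39) and Ifnar2 (log2 0.18) overlapped between groups.

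Of 16 genes that carry or curb the interferon signal, 7 rose and 0 fell (median log2 fold change 0.71), beside 6.82% higher and 5.7% lower over all genes. Irf7, the factor that amplifies interferon production, was at 426, 608 and 661 RPKM in the Ifnar1-deficient and at 39, 65.1 and 37 RPKM in the control embryos (log2 3.59, SE 0.59, adjusted p = 9.73e-05, edgeR). Usp18, which curbs the type I receptor and removes ISG15 from proteins, was at 131, 180.5 and 219 against 5.84, 10.1 and 4.88 RPKM (log2 4.67, SE 0.57, adjusted p = 6.39e-06). In both genes Ifnar1-deficient embryo 1 was the lowest of its group and still above all controls. Stat2, a transcription factor of the type I signal, was at 64.5, 63.5 and 69.4 against 30.7, 35.1 and 29.5 RPKM (log2 1.05, and 1.00 without control embryo 3, which was no longer called). Socs1, a feedback inhibitor of JAK kinases (log2 2.19), Irf5 (log2 1.49) and Irf1 (log2 1.11) rose as well. The kinases Jak1 (log2 0.26), Jak2 (log2 0.46) and Tyk2 (log2 -0.35), the factors Irf2 (log2 0.26), Irf3 (log2 -0.12), Irf8 (log2 0.50), Irf9 (log2 0.93) and Stat3 (log2 0.43) and the inhibitor Socs3 (log2 0.36) were not called. Irf9 passed the threshold without control embryo 2 (log2 1.03) or Ifnar1-deficient embryo 1 (log2 1.02).

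Guanylate-binding proteins and immunity-related GTPases, which attack the vacuoles of intracellular microbes, rose nearly throughout, with 18 of 19 tested members higher, 1 lower and a median log2 fold change of 3.20, beside 6.82% and 5.7% over all genes. Gbp3, whose promoter is printed above, was at 49.6, 56.8 and 67.5 RPKM in the Ifnar1-deficient and at 3.5, 4.18 and 3.08 RPKM in the control embryos (log2 4.01, SE 0.51, adjusted p = 8.42e-06, edgeR). Irgm1, a regulator of the family, was at 162, 169 and 205 against 10.4, 15.2 and 11 RPKM (log2 3.87, SE 0.42, adjusted p = 1.89e-06). Both separated the groups by a wide margin. Tgtp1 rose by 3.96 and Gbp2 by 2.10 on the log2 scale. Gbp10 had 23 against 0 reads, a ratio of 6.28 with 3 reads in place of the 0. Gbp2b, named after its values were seen, was the member that fell, at 0.271, 0.158 and 0.105 against 1.36, 1.36 and 1.59 RPKM (log2 -3.00, SE 0.48). The copies within this family are close, so reads could have been divided between them.

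Antigen presentation divided by class. Of 21 genes of MHC class I and peptide loading, 19 rose and 0 fell (median log2 fold change 2.00), whereas of 10 class II genes 1 rose and 0 fell (median 0.08), beside 6.82% higher over all genes. H2-Q7, a class Ib molecule, was at 37.2, 53.8 and 59.3 RPKM in the Ifnar1-deficient and at 0.722, 0.684 and 0.619 RPKM in the control embryos (log2 6.21, SE 0.75, adjusted p = 5.27e-06, edgeR), and its close copy H2-Q6 at 75.4, 78.8 and 97 against 0.387, 0.832 and 0.864 RPKM (log2 6.91). Nlrc5, the transactivator of class I genes, was at 4.89, 3.86 and 4.74 against 0.23, 0.278 and 0.222 RPKM (log2 4.21, SE 0.56, adjusted p = 1.51e-05). H2-T10 rose by 3.06 on the log2 scale, and B2m, Tap1, Psmb8 and Psmb9, which supply the light chain, the peptide pump and the immunoproteasome and are named after their values were seen, were also called higher. Psme1 (log2 0.83) and Erap1 (log2 0.81) were higher in every Ifnar1-deficient embryo but not called. The class II gene that rose was Ctss, a lysosomal protease that is not itself a class II molecule, at 152.8, 172 and 193 against 80, 75.8 and 76.4 RPKM (log2 1.16). Cd74, the invariant chain, was at 88.7, 79.8 and 85.9 against 71.8, 69.2 and 59.4 RPKM (log2 0.34), and H2-Ab1 at 25.6, 22.5 and 27.1 against 29.2, 29.4 and 26.9 RPKM (log2 -0.18).

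Sensors of foreign nucleic acid rose in part, with 11 of 16 tested members higher and 0 lower (median log2 fold change 1.29), beside 6.82% higher over all genes. Ifi204, a DNA-binding PYHIN protein, was at 36.7, 58.2 and 76.1 RPKM in the Ifnar1-deficient and at 2.26, 2.24 and 2.63 RPKM in the control embryos (log2 4.58), and its relative Ifi205 rose by 4.11. Dhx58 (log2 3.37) and Ifih1 (log2 2.71), which encode the RNA sensors LGP2 and MDA5, rose as well. Mavs, the adaptor through which the RNA sensors act, was at 19.1, 16.9 and 18.6 against 32.9, 31.6 and 30.8 RPKM (log2 -0.80) and was not called, although each Ifnar1-deficient embryo lay below each control.

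The chemokines and cytokines that the study names all rose, 12 of 12, with a median log2 fold change of 4.99, beside 6.82% higher over all genes. The study chose this list on samples of this series, so its direction is not independent evidence. Cxcl10, which draws T cells through CXCR3, was at 82.8, 101 and 128 RPKM in the Ifnar1-deficient and at 0.697, 1.38 and 0.987 RPKM in the control embryos (log2 6.67, SE 0.60, adjusted p = 3.85e-07, edgeR). Cxcl11, a further CXCR3 ligand, had 1990 reads against 1 read over the group, a ratio of 1630 with a 95% counting interval from 292 to 6.443e+04. Cxcl9, the third ligand of that receptor, was much lower per length, at 0.94, 1.38 and 1.36 against 0.157, 0.0909 and 0.0692 RPKM (log2 3.51). Among neutrophil attractants, Cxcl1 was at 7.08, 12.1 and 8.96 against 0.106, 0.11 and 0.105 RPKM (log2 6.38), Cxcl2 rose by 7.44 and Cxcl5 by 5.20. Tnf, the cytokine that triggers the death receptor TNFR1, was at 4.43, 5.17 and 4.98 against 0.0923, 0.0321 and 0.061 RPKM (log2 6.21, SE 0.73, adjusted p = 4.41e-06). Each of these genes was higher in all 3 Ifnar1-deficient embryos than in any control. Ccl5 (log2 4.79), Il1b (log2 3.45) and Ccl7 (log2 2.93) rose too. Il6 had 32 against 3 reads, a ratio of 8.74 with a counting interval from 2.73 to 44.6. Ccl22 had the weakest call, at 0.192, 0.165 and 0.267 against 0, 0.0948 and 0.0226 RPKM (log2 2.36, SE 0.86, adjusted p = 0.0314), and lost it without control embryo 1, control embryo 3 or Ifnar1-deficient embryo 3, with embryo sex as a covariate (adjusted p = 0.0728) and with limma-voom (adjusted p = 0.092).

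Of 11 pathogen defense genes that the study names and that were tested on autosomes, 8 rose and 0 fell (median log2 fold change 4.84). Over all genes 6.82% were higher and 5.7% lower, and the same caution on the choice of the list applies. Nos2, the inducible nitric oxide synthase, was at 55.1, 41.4 and 47.3 RPKM in the Ifnar1-deficient and at 0.211, 0.232 and 0.116 RPKM in the control embryos (log2 8.0, SE 0.64, adjusted p = 1.57e-07, edgeR). Marco, a scavenger receptor of macrophages, was at 2.45, 2.78 and 2.83 against 0, 0.218 and 0 RPKM (log2 5.19). Acod1, which makes itaconate, had 81 against 2 reads, a ratio of 33.2 with a counting interval from 8.89 to 278.6, and Mmp12, macrophage elastase, rose by 3.67 on the log2 scale. The members that are granule proteins of cytotoxic lymphocytes were not called, and Prf1 had too few reads to be set against the members that rose. Gzmb was at 0.384, 0.367 and 0.53 against 0.491, 0.0366 and 0.697 RPKM, with overlapping groups, and Prf1 had 6 reads against 1 read, a ratio of 4.92 with a counting interval from 0.596 to 226.

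Further chemokines and cytokines numbered 34 after the filter, of which 15 rose and 1 fell (median log2 fold change 0.96), beside 6.82% and 5.7% over all genes. Ccl20, an epithelial ligand of CCR6, was at 94.5, 121 and 111 RPKM in the Ifnar1-deficient and at 1.99, 2.51 and 2.29 RPKM in the control embryos (log2 5.59, SE 0.29, adjusted p = 4.09e-09, edgeR). Il17c, an epithelial cytokine, had 116 reads against 1 read, a ratio of 95 with a counting interval from 16.7 to 3786. Ccl3 and Ccl8, with 36 and 33 reads against 1 read each, had ratios of 29.5 (4.97 to 1197) and 27 (4.53 to 1100). The gene that fell was Cxcl15, named after its values were seen, at 0.02, 0 and 0.0596 against 0.284, 0.198 and 0.4 RPKM (log2 -3.37). It was under the filter, and so not tested, at a mean of 50 reads and with only the 2 groups fitted.

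Targets and regulators of NF-kB, the factor that TNF and Toll-like receptors activate, were higher in 16 of 23 members and lower in 0 (median log2 fold change 1.48), beside 6.82% higher over all genes. Nfkbia, which encodes the inhibitor IkBa and is itself a target, was at 132.9, 132 and 139 RPKM in the Ifnar1-deficient and at 22.2, 18.6 and 19.4 RPKM in the control embryos (log2 2.75, SE 0.25, adjusted p = 4.98e-07, edgeR). Relb, a subunit of the noncanonical branch, was at 51.2, 52 and 51.6 against 7.78, 6.61 and 5.56 RPKM (log2 2.96, SE 0.29, adjusted p = 8.14e-07). These levels were nearly the same in all 3 Ifnar1-deficient embryos. Icam1, an adhesion molecule for leukocytes (log2 2.70), and Tnip3, an inhibitor of the pathway (log2 5.64), rose as well, and Nfkb1 (log2 0.55) was not called.

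Of 21 genes of the death receptor complex and of necroptosis, 9 rose and 0 fell (median log2 fold change 0.51), beside 6.82% higher and 5.7% lower over all genes. Beside Zbp1 and Mlkl these were Birc3, which encodes a ubiquitin ligase of TNF receptor complexes (log2 2.31), Tnfsf10, the death ligand TRAIL (log2 2.33), and, named after their values were seen, Fas, Ripk3, Tnfaip3, Tnfrsf1b and Traf2. Tnfrsf1a, the receptor TNFR1, was at 105, 104 and 114 against 88.4, 87.4 and 83 RPKM (log2 0.32) and was not called. Among 24 genes of the Bcl2 family and executioner caspases 3 rose and 0 fell, a share of calls equal to the 12.5% over all genes. Among them were Pmaip1, which encodes the proapoptotic NOXA (log2 1.47), and Bid, a substrate of caspase-8 (log2 1.28). Mcl1, a survival gene, had a log2 fold change of 0.36 and was not called.

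Inflammasome and pyroptosis genes gave 9 higher and 1 lower of 26, beside 6.82% and 5.7% over all genes, and the lower one was the deleted Casp1. Casp4, which encodes the mouse caspase-11 that senses lipopolysaccharide, was at 69.6, 97.6 and 95.5 RPKM in the Ifnar1-deficient and at 9.1, 9.81 and 7.91 RPKM in the control embryos (log2 3.29, SE 0.34, adjusted p = 1.32e-06, edgeR). The antagonists Il18bp, at 15.1, 18.4 and 22.3 against 1.1, 1.46 and 1.6 RPKM (log2 3.75), and Il1rn, at 5.27, 5.14 and 5.83 against 0.41, 0.213 and 0.758 RPKM (log2 3.54), rose beside Il1b. Gsdmd, the pore protein of pyroptosis, was at 209, 239.6 and 252 against 127, 140.5 and 124 RPKM (log2 0.84), and the adaptor Pycard at 99.3, 159 and 143 against 80.8, 79.9 and 72.9 RPKM (log2 0.78). Both were higher in each Ifnar1-deficient embryo, but neither was called.

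**Figure D3:**
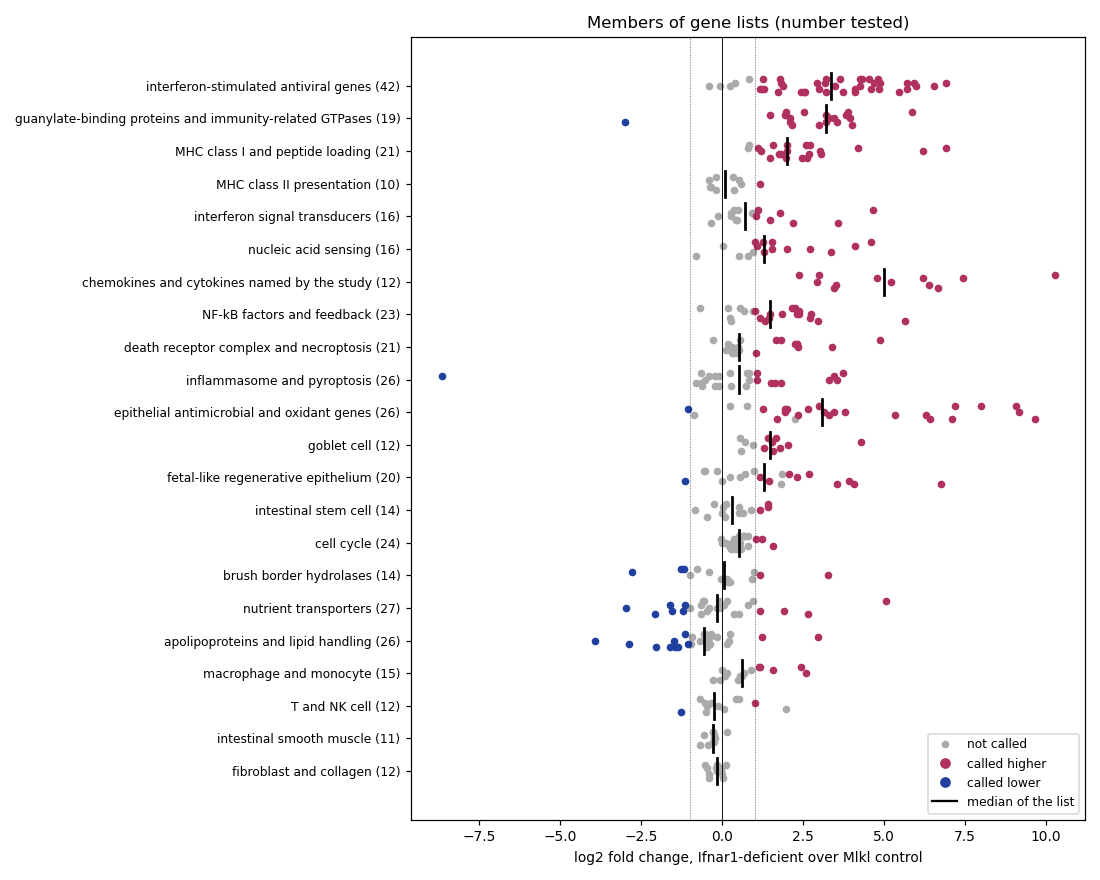
Each point is 1 tested member of a gene list (number tested in parentheses), placed by its log2 fold change of Ifnar1-deficient over Mlkl control intestine, with bars at the list medians. The interferon, guanylate-binding and class I lists lie to the right of the dotted line at 1 for most members, the metabolic lists spread to both sides, and smooth muscle and fibroblast genes lie between the dotted lines.

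Secreted antimicrobial and oxidant genes of the epithelium were among the largest changes, with 21 of 26 higher and 1 lower (median log2 fold change 3.07), beside 6.82% and 5.7% over all genes. Reg3g, a lectin that kills Gram-positive bacteria, was at 2310, 2440 and 2084 RPKM in the Ifnar1-deficient and at 5.17, 3.41 and 4.15 RPKM in the control embryos (log2 9.06, SE 0.61, adjusted p = 2.98e-08, edgeR). Saa3, an acute phase protein, was at 152, 278 and 233 against 0.387, 0.242 and 0.192 RPKM (log2 9.65, SE 0.63, adjusted p = 2.64e-08). Reg2, a further member of the Reg family, had 232 against 0 reads, a ratio of 63.4 with 3 reads in place of the 0. Duox2, Duoxa2, Reg3b and Lcn2, named after their values were seen, were called higher too, and the Reg genes are close copies between which reads could have been divided. Leap2, a peptide of enterocytes, differed between embryos, at 40.9, 215 and 208 against 258, 269 and 321 RPKM (log2 -0.87), and was not called. It was called lower without Ifnar1-deficient embryo 2 or 3 (log2 -1.18 and -1.15) and, with all embryos, by limma-voom (log2 -1.20). Reg4, named after its values were seen, was the member that fell, at 32.5, 33.7 and 41.5 against 71.5, 77.4 and 77 RPKM (log2 -1.07).

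Goblet cell genes gave 8 higher and 0 lower of 12 (median log2 fold change 1.47), beside 6.82% higher over all genes. Zg16, a mucus lectin, was at 499, 724 and 609.6 RPKM in the Ifnar1-deficient and at 13.8, 22 and 59 RPKM in the control embryos (log2 4.27, SE 0.76, adjusted p = 0.000209, edgeR). Tff3, a trefoil peptide, was at 1855, 3475 and 2912 against 579.6, 751 and 1264 RPKM (log2 1.67), and Clca1 (log2 2.04) and Fcgbp (log2 1.79) rose with it. Control embryo 3 was the highest control for each of these 4 genes and still lay below every Ifnar1-deficient embryo. Spdef, a factor of the secretory lineage, was at 16.2, 23.2 and 21.3 against 8.45, 8.52 and 14.1 RPKM (log2 0.97), not called with all embryos and called without control embryo 3 (log2 1.25), without Ifnar1-deficient embryo 1 (log2 1.10) or with embryo sex as a covariate (log2 1.23). Of 8 tuft and Paneth cell genes 3 rose, namely Mmp7 at 39, 60.4 and 51.9 against 0.991, 2.75 and 4.92 RPKM (log2 4.12), Ang4 at 12.1, 11.1 and 11.3 against 0.853, 1.48 and 1.98 RPKM (log2 2.99) and Lyz1 (log2 1.69), and 5 rose without control embryo 3 or with limma-voom.

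Of 20 genes of the fetal-like state that injured epithelium adopts, 9 rose and 1 fell (median log2 fold change 1.30), beside 6.82% higher and 5.7% lower over all genes. Ly6a, which encodes the marker Sca-1, was at 143, 151 and 166 RPKM in the Ifnar1-deficient and at 11.4, 9.63 and 9.36 RPKM in the control embryos (log2 3.92, SE 0.52, adjusted p = 1.41e-05, edgeR). Areg, a ligand of the EGF receptor, was at 29.5, 37.7 and 41.2 against 2.2, 2.16 and 2.02 RPKM (log2 4.08), and Ly6d, a relative of Ly6a, rose by 6.76. Ly6a is itself induced by interferons, so it belongs to both groups of genes. Stem cell genes gave 3 higher and 0 lower of 14, namely Ascl2 (log2 1.41), the Wnt target Axin2 (log2 1.41) and Cd44 (log2 1.18). Cell cycle genes gave 3 higher and 0 lower of 24, again the 12.5% called over all genes, namely Ccne1 (log2 1.57), the cell cycle inhibitor Cdkn1a (log2 1.23) and Rrm2 (log2 1.04, and 0.95 and not called without Ifnar1-deficient embryo 2). Of 18 junction genes 3 rose and 3 fell, with Cldn4 at 176.5, 224 and 270.1 against 26.1, 25.9 and 27.3 RPKM (log2 3.08) and F11r (log2 1.59) on one side and Cldn1, at 1.39, 2.05 and 2.02 against 6.88, 8.2 and 6.44 RPKM (log2 -1.98), on the other.

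Genes of nutrient handling moved in both directions. Apolipoproteins and lipid handling gave 2 higher and 9 lower of 26 (median log2 fold change -0.56), nutrient transporters 4 higher and 6 lower of 27 (median -0.15), brush border hydrolases 2 higher and 3 lower of 14 (median 0.06) and absorptive enterocyte markers 1 higher and 5 lower of 18 (median -0.43), against 5.7% lower over all genes. The 1 enterocyte marker became 2 without control embryo 2 or Ifnar1-deficient embryo 1 or 3. Fbp1, a gluconeogenic phosphatase and one of the largest falls, was at 3.82, 6.2 and 5.15 RPKM in the Ifnar1-deficient and at 205, 185 and 202 RPKM in the control embryos (log2 -5.28, SE 0.22, adjusted p = 1.04e-10, edgeR). Pck1, the carboxykinase at the entry of gluconeogenesis, was at 7.99, 7.5 and 8.12 against 122, 116 and 119 RPKM (log2 -3.92, SE 0.27, adjusted p = 2.98e-08). In both genes the embryos of a group were close to each other and far from the other group.

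Among transporters and receptors of the enterocyte, Slc2a2, which carries glucose across the basolateral membrane, was at 3.19, 3.53 and 2.63 RPKM in the Ifnar1-deficient and at 23.6, 22.9 and 26.3 RPKM in the control embryos (log2 -2.96). Cubn, which takes up the vitamin B12 and intrinsic factor complex, was at 7.68, 6.46 and 6.03 against 57.9, 49.2 and 47.4 RPKM (log2 -2.94), and the amino acid transporter Slc7a8 fell by 2.06 on the log2 scale. Lct, lactase, was at 38, 40.5 and 42.9 against 303, 291 and 248 RPKM (log2 -2.80), the largest fall among the hydrolases. Ace (log2 -1.19) and Naaladl1 (log2 -1.28), both peptidases of the brush border, fell less. The abundant lipid carriers Fabp1, at 1467, 1652 and 1731 against 6619, 6916 and 6331 RPKM (log2 -2.04), and Rbp2, at 1148, 1261 and 1327 against 3912, 3890 and 3551 RPKM (log2 -1.60), fell but remained at high levels.

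Other genes of absorptive enterocytes were not called lower. Apoa1, which forms high density lipoprotein, was at 8227, 9684 and 10810 RPKM in the Ifnar1-deficient and at 9354, 9147 and 7444 RPKM in the control embryos (log2 0.15), with overlapping groups. Alpi, intestinal alkaline phosphatase, was at 392, 387.1 and 402 against 539.9, 539.9 and 474 RPKM (log2 -0.40), and Apoa4 had a log2 fold change of -0.47, neither of them called. Anpep, an aminopeptidase of the brush border, was at 816, 711 and 743 against 358, 345 and 307 RPKM (log2 1.17, SE 0.21, adjusted p = 0.000269, edgeR). Fabp6, the bile acid carrier of the ileum, was at 460.4, 686 and 573 against 82.4, 74.6 and 66.4 RPKM (log2 2.94, SE 0.74, adjusted p = 0.00338). Anpep and Fabp6 rose while Fabp1 and Rbp2 fell, and bulk tissue does not show whether this was in the same cells or gut segment. Slc5a12, a monocarboxylate transporter (log2 5.06), Tmprss15, enteropeptidase (log2 3.26), and Slc13a1, a sulfate transporter (log2 2.63), rose from low levels in the controls. No gene of cholesterol synthesis (0 of 21, median -0.13) or of the respiratory chain subunits (0 of 22, median -0.14) was called by edgeR, DESeq2 or limma-voom with all embryos, and 10 and 12 of them had an unadjusted p under 0.05. Without Ifnar1-deficient embryo 1, 1 respiratory chain gene was called higher. Of 21 genes of cytochromes P450 and detoxification 4 rose and 3 fell, beside 6.82% higher and 5.7% lower over all genes, with 6 lower without Ifnar1-deficient embryo 2.

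**Figure D4:**
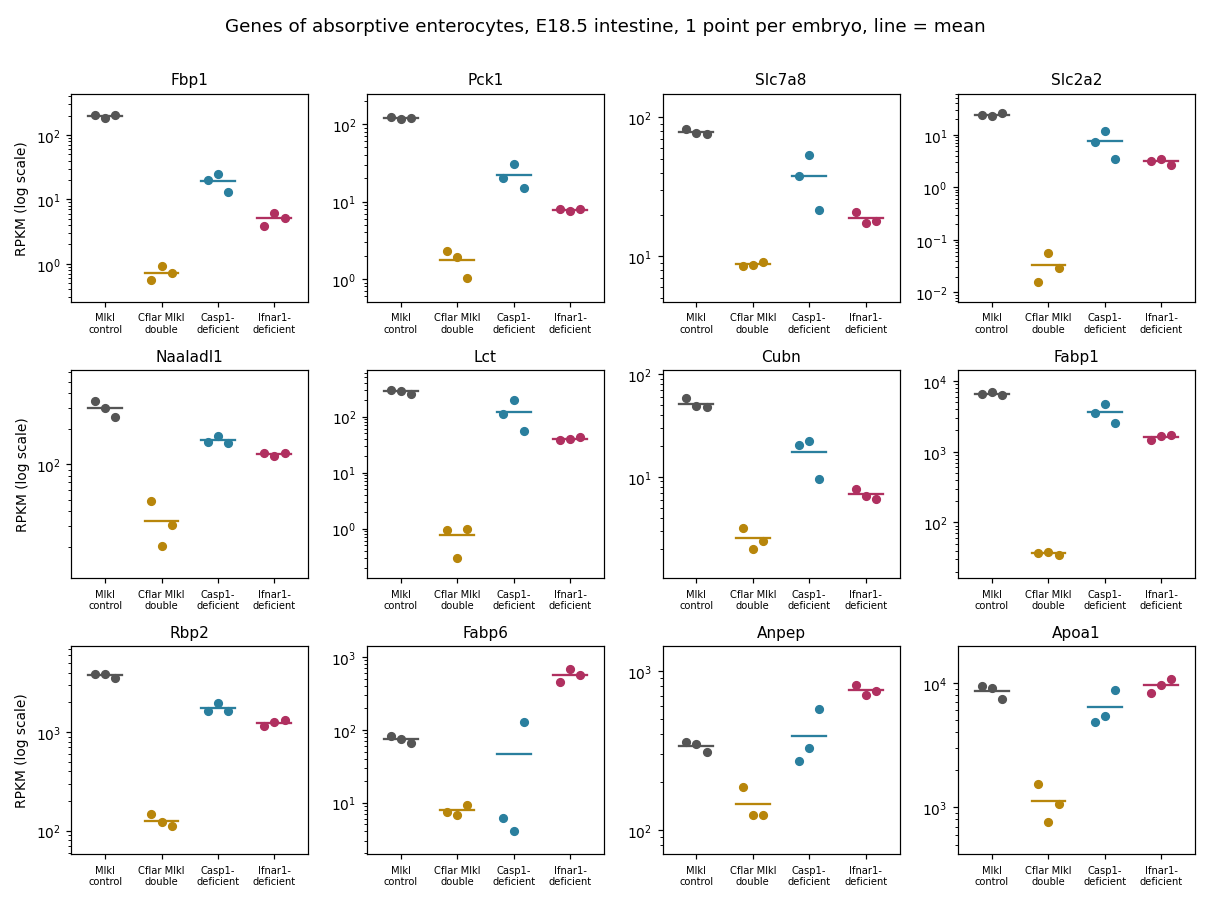
RPKM on log axes of 12 genes of absorptive enterocytes in the 4 groups, with 1 point per embryo and a line at the group mean. From Fbp1 to Rbp2 the Ifnar1-deficient embryos lie below the Mlkl controls and above the Cflar Mlkl double-deficient embryos, whereas Fabp6 and Anpep lie above the controls and Apoa1 overlaps them.

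Leukocyte markers moved unevenly. Of 15 macrophage and monocyte genes 5 rose and 0 fell (median log2 fold change 0.61), beside 6.82% higher and 5.7% lower over all genes. The summed RPKM of the list was 421, 500.2 and 479.6 in the Ifnar1-deficient and 252, 238 and 224 in the control embryos. Lyz2, a lysozyme of myeloid cells, was at 98.6, 152 and 123 against 21.6, 21.2 and 19.8 RPKM (log2 2.58, SE 0.15, adjusted p = 1.16e-08, edgeR), Cd14 rose by 2.44, Cd68 by 1.58, Itgam by 1.17 and Adgre1 by 1.14 on the log2 scale, and Csf1r had a log2 fold change of 0.16. Of 13 neutrophil genes 7 rose and 2 fell (median 1.65), with Mmp9 at 32.5, 34.9 and 30.4 against 6.83, 6.87 and 5.91 RPKM (log2 2.32) and Ltf at 21, 19.6 and 23.5 against 3.2, 3.23 and 2.75 RPKM (log2 2.80). The genes that fell were Ngp and Mpo. Ngp was at 0.313, 0.233 and 0.0692 against 0.784, 3.96 and 0.9 RPKM (log2 -3.16) and Mpo, myeloperoxidase, at 0.0146, 0.0419 and 0.0437 against 0.0347, 0.452 and 0.138 RPKM (log2 -2.55), with control embryo 2 highest for both and overlapping groups for Mpo. Camp, another gene of the list, overlapped between the groups (log2 -0.05) and was not called. The count of 7 was 4 without control embryo 1 or Ifnar1-deficient embryo 2, and the count of 2 was 0 without control embryo 2 and 1 without Ifnar1-deficient embryo 1, with limma-voom or with only the 2 groups fitted. Of 12 T and NK cell genes 1 rose, Cd4 (log2 1.01), and 1 fell, Il7r (log2 -1.28), beside 12.5% of all genes called either way, the summed RPKM overlapped between groups (18.8 to 22.6 against 20.4 to 23), and Cd3d, Cd3e, Cd8a, Cd8b1, Ncr1 and Eomes were under the filter. The call for Cd4 was lost at a prior count of 2 (log2 0.99) and without control embryo 2 (log2 0.98) or Ifnar1-deficient embryo 1 (log2 0.94). Smooth muscle genes (0 of 11, median -0.28) and fibroblast genes (0 of 12, median -0.16) had no call with edgeR, DESeq2 or limma-voom, and 6 and 4 of them had an unadjusted p under 0.05. The lists of endothelium (1 higher and 0 lower of 14), enteric neurons and glia (1 and 1 of 13), enteroendocrine cells (2 and 1 of 19), mast cells and eosinophils (1 and 0 of 8) and B cells (0 and 0 of 2 with each of these tools, 1 at an unadjusted p under 0.05) had 0 to 3 calls each beside 12.5% of all genes called either way, several of which changed with 1 embryo left out, and nothing is read from these counts. Complement genes (3 and 1 of 14), metalloproteinases and their inhibitors (5 and 0 of 14) and lysosomal protease genes (2 and 3 of 14, with 1 lower without Ifnar1-deficient embryo 1) had 4 or 5 calls each. The part that cell numbers had in the changes above was not tested.

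Markers of neighbouring organs differed between groups or between single libraries. Liver genes gave 0 higher and 7 lower of 8, beside 5.7% lower over all genes, and 4 lower without control embryo 2. Their summed RPKM was 121, 170 and 189.6 in the Ifnar1-deficient and 719, 942 and 583 in the control embryos, so each control exceeded each Ifnar1-deficient embryo. Afp had the most reads of the list, 14972 in the Ifnar1-deficient and 58735 in the control embryos. Ttr had 3493 against 11251 reads and Alb 12 against 5419. The sum therefore does not measure liver tissue alone, and the source of the Afp and Ttr reads was not tested. Alb was at 0.104, 0.0998 and 0.0416 RPKM in the Ifnar1-deficient and at 3.05, 135 and 1.62 RPKM in the control embryos, and Ahsg and Fgg also were highest in control embryo 2. The log2 fold change of Alb was -9.10 with all embryos and -4.79, no longer called, without that embryo, and that of Ahsg was -9.45 and -5.03, no longer called. Neither was called by limma-voom with all embryos. Stomach genes gave 0 higher and 6 lower of 7, and 2 lower without control embryo 3, with embryo sex as a covariate, with limma-voom, at a mean of 50 reads or with only the 2 groups fitted, and 1 lower with DESeq2. The summed RPKM of the stomach list was 39.7, 61.8 and 37.7 in the Ifnar1-deficient and 4.38, 5.16 and 326 in the control embryos. Gkn2, a gastrokine, was at 0.269, 0.206 and 0 against 0, 0 and 30.2 RPKM, and Tff1 at 1.51, 3.74 and 0.708 against 0.105, 0 and 146 RPKM, so the direction of both turned without control embryo 3, to log2 fold changes of 4.55 and 4.94. Pancreatic acinar genes gave 4 higher and 1 lower of 9, with 8 higher without control embryo 3, 7 without Ifnar1-deficient embryo 1 and 2 without Ifnar1-deficient embryo 2. With all embryos this count was 1 with DESeq2, 2 at a mean of 50 reads, and 8 with limma-voom, no filter or the replicate block. Prss1, a trypsinogen, was at 2.21, 3.88 and 3.57 against 0, 0 and 0.311 RPKM (log2 4.85), and was not called by DESeq2 (adjusted p = 0.15). Erythroid genes gave 1 higher and 4 lower of 8 and overlapped in sum, with Ifnar1-deficient embryo 1 lowest at 532 RPKM. The 4 became 2 without control embryo 1 or 3 or Ifnar1-deficient embryo 1 or 2.

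**Figure D5:**
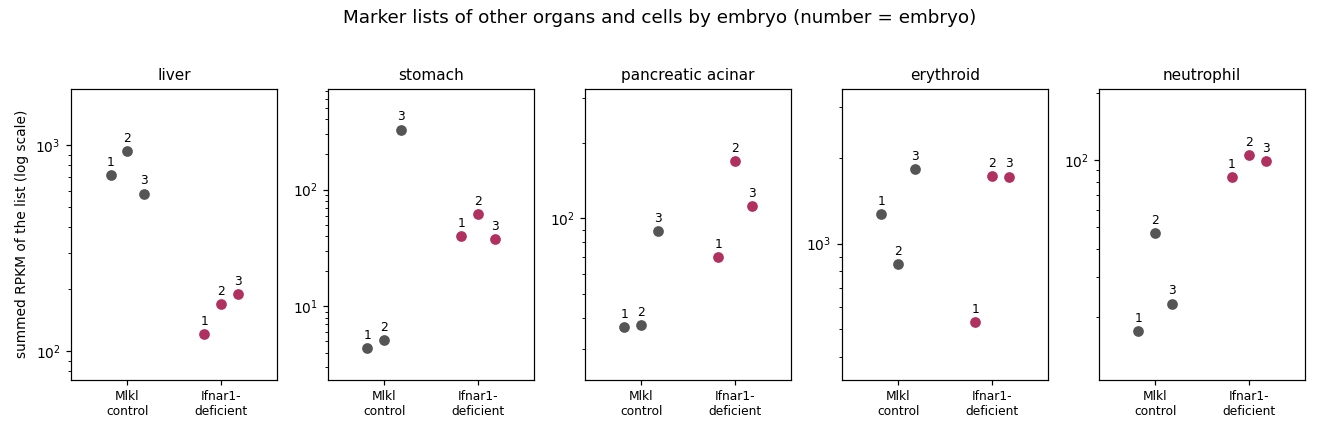
Summed RPKM on log axes of marker lists for liver, stomach, pancreatic acinar, erythroid and neutrophil cells, with 1 numbered point per embryo. Control embryo 3 stands far above the other controls in the stomach panel at 326 RPKM, and the groups overlap in the stomach, pancreatic acinar and erythroid panels.

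Over all autosomal genes with a mean of at least 5 CPM in the higher group and no overlap between groups, the largest rise was that of Ubd, which encodes the ubiquitin-like FAT10 that interferon gamma and TNF induce. Ubd was at 903.7, 1786 and 2001 RPKM in the Ifnar1-deficient and at 0.163, 0.226 and 0.806 RPKM in the control embryos (log2 11.91, SE 1.28, adjusted p = 1.96e-06, edgeR). H2-M2, a class Ib molecule, was at 123, 108 and 117.5 against 0.065, 0.0339 and 0.0645 RPKM (log2 10.96, SE 0.67, adjusted p = 1.54e-08), and Slfn4, a schlafen gene of myeloid cells, at 110.7, 95.2 and 91.7 against 0.471, 0.57 and 0.53 RPKM (log2 7.56). Both were as high in embryo 1 as in the others. Cxcl11, Saa3, Reg3g and Nos2 belonged to the 10 largest as well. The remaining 3 had 1 read in the controls, with 620 reads of Gm20234 (ratio 508, counting interval 90.8 to 2.01e+04), 406 of 2010109I03Rik (ratio 333, interval 59.4 to 1.317e+04) and 375 of Psg18, a pregnancy-specific glycoprotein (ratio 307, interval 54.8 to 1.217e+04).

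The 10 largest falls held Casp1, the liver genes Ahsg, Alb and Fgg, the stomach gene Pga5 and 5 genes of metabolism. Pga5, a pepsinogen, was at 0.419, 1.17 and 0.776 RPKM in the Ifnar1-deficient and at 3.17, 3.97 and 57 RPKM in the control embryos, with control embryo 3 highest. Abcb11, the bile salt export pump, was at 0.462, 0.386 and 0.394 against 23.6, 21.1 and 24.3 RPKM (log2 -5.79, SE 0.53, adjusted p = 4.59e-07, edgeR). Prodh2, which degrades hydroxyproline, was at 0.298, 0.482 and 0.685 against 14.8, 13.4 and 12.5 RPKM (log2 -4.79, SE 0.52, adjusted p = 1.96e-06). The controls agreed closely for both genes, unlike for the liver and stomach genes. Mfsd4b1, a transporter of the major facilitator family (log2 -4.82), Cyp2c23, a cytochrome P450 (log2 -4.58), and Fbp1 made up the rest.

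Genes near the engineered loci can differ between groups because of sequence carried along with an allele, so those within 2000 kb were counted. Near Casp1 4 of 17 tested genes rose, 23.5%, among them Casp4, 1.56 kb away. Near Ifnar1 1 of 33 rose and 4 fell, 15.2%, with Rcan1, a calcineurin regulator, at 76.1, 88.9 and 87.3 RPKM in the Ifnar1-deficient and at 40.4, 39.7 and 36.9 RPKM in the control embryos (log2 1.11). Near Mlkl 4 of 46 rose, 8.7%, and near Casp8 and Cflar, which are neighbours, 1 of 40 rose and 1 fell, 5%. The share over all genes was 12.5%, the counts per window are small, and these shares are given only as a description. The part of flanking sequence was not tested.

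Against the Casp1-deficient embryos, which have functional Ifnar1, 585 genes were called higher in the Ifnar1-deficient embryos, 3.32%, and 359 lower, 2.04%. Casp1-deficient embryo 3 stood apart from its group, and without it 1107 were higher and 585 lower, while without embryo 1 or 2 of that group 349 or 319 were higher and 258 or 237 lower. Ifnar1 itself was at 23.1, 23.9 and 22.7 RPKM in the Casp1-deficient embryos (log2 -1.37, SE 0.07, adjusted p = 1.16e-08, edgeR). Of the 42 interferon-stimulated antiviral genes 10 were called higher and 0 lower, with 34 higher without Casp1-deficient embryo 3, 0 without embryo 1 or 2, and 4 or 1 without Ifnar1-deficient embryo 2 or 3. With all embryos this count was 0 with only the 2 groups fitted, 5 with embryo sex as a covariate, 18 with the replicate block, 20 with no filter and 27 with limma-voom. Embryo 2 alone was male in the Casp1-deficient group. Mx1 was at 8.39, 14 and 57.7 RPKM in the Casp1-deficient embryos (log2 1.12, SE 0.47, adjusted p = 0.0811) and was not called, but was called without embryo 3 (log2 2.37) and, with all embryos, with limma-voom, no filter or the replicate block. Cxcl10 was at 25.4, 35.8 and 142 RPKM (log2 0.62, and 1.76 and called without embryo 3), and Irf7 at 54.6, 75.9 and 422 RPKM (log2 1.62, adjusted p = 0.0322, and lost without embryo 1 or 2, without Ifnar1-deficient embryo 2 or 3, or with embryo sex as a covariate). For these genes embryo 3 lay near or within the Ifnar1-deficient range and the other two below it. Reg3g, at 153, 158 and 744 RPKM (log2 2.69), H2-M2, at 21.2, 23.9 and 72.1 RPKM (log2 1.58), and Ubd, at 36.1, 41.8 and 672 RPKM (log2 2.65), were higher in each Ifnar1-deficient embryo. The call for Ubd was lost without Casp1-deficient embryo 2, and those for H2-M2, Ubd and Irf7 with only the 2 groups fitted. Fbp1 was at 20.3, 24.9 and 13 RPKM (log2 -1.94), Abcb11 at 6.11, 8.57 and 1.05 RPKM (log2 -3.66) and Fabp1 at 3521, 4757 and 2575 RPKM (log2 -1.16, and -0.92 and not called without embryo 2), so these 3 genes were lower in each Ifnar1-deficient embryo. Of the lists, 18 of 26 antimicrobial genes, 14 of 21 MHC class I genes and 8 of 9 pancreatic acinar genes were called higher and 0 lower, and 6 of 8 erythroid genes were called lower. The summed erythroid RPKM was 7117, 3490 and 1242 in the Casp1-deficient and 532, 1717 and 1715 in the Ifnar1-deficient embryos, so Casp1-deficient embryo 3 lay within the Ifnar1-deficient range. With only the 2 groups fitted the antimicrobial count was 8 and the class I count 0, and without Casp1-deficient embryo 1 or 2 the class I count was 4. The acinar count was 4 at a filter of a mean of 50 reads. Among genes with a mean of at least 5 CPM, reads scaled to library size, in the higher group and no overlap, the 5 largest rises were Gm42031 and the pancreatic enzymes Cela2a, Try5, Prss2 and Cela3b, with 418 reads of Prss2 against 1 read.

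Against the Cflar Mlkl double-deficient embryos, which have Casp1 and Ifnar1, 1508 genes were called higher in the Ifnar1-deficient embryos, 8.55%, and 562 lower, 3.19%. This comparison shares the Ifnar1-deficient embryos with the others. Enterocyte genes were higher, with 16 of 18 absorptive markers, 24 of 27 transporters, 13 of 14 hydrolases and 18 of 26 lipid genes called higher and 0 lower. Leap2 was at 0, 0.337 and 0.0753 RPKM in the double-deficient embryos (log2 10.07), and G6pc, a phosphatase of glucose release, at 0.0179, 0.0741 and 0 RPKM (log2 6.69), both far below each Ifnar1-deficient embryo. Slc5a12 (log2 6.66) and Slc2a2 (log2 6.51) were higher likewise, and Tmprss15 had 716 against 2 reads, a ratio of 352 with a counting interval from 97 to 2908. Interferon-stimulated antiviral genes gave 28 higher and 5 lower of 42, with 3 lower without double-deficient embryo 3, and had Mx1 at 5.93, 3.73 and 8.28 RPKM (log2 3.27), Irf7 at 130, 94.1 and 128 RPKM (log2 2.27) and Ubd at 106, 59.8 and 133 RPKM (log2 3.97) in the double-deficient embryos. Cxcl10, at 76, 51.9 and 85 RPKM (log2 0.55), overlapped with the Ifnar1-deficient embryos and was not called.

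By the same rule, the 5 largest falls against the double-deficient embryos were Casp1, Ido1, Ccl22, Gzmb and Cxcl9, and the 5 largest rises were Leap2, Tmprss15, G6pc, Slc5a12 and Slc2a2. Cxcl9, which interferon gamma induces, was at 31, 17.1 and 32.8 RPKM in the latter (log2 -4.46, SE 0.37, adjusted p = 6.96e-08, edgeR), and Ido1, which degrades tryptophan, at 4.19, 2.15 and 8.59 RPKM (log2 -4.94). Gzmb, granzyme B of cytotoxic lymphocytes, was at 10.1, 9.49 and 15.6 RPKM (log2 -4.77), and Ccl22, a ligand of CCR4, at 4.95, 3.37 and 8.93 RPKM (log2 -4.78). Every double-deficient embryo exceeded every Ifnar1-deficient embryo for these 4 genes. Il1b, at 20.5, 19.6 and 32.5 RPKM (log2 -2.28), and Reg3g, at 6737, 6912 and 5633 RPKM (log2 -1.50), were lower in the Ifnar1-deficient embryos as well. Of the lists, 6 of 12 T and NK cell genes, 8 of 13 neutrophil genes and 8 of 14 metalloproteinase genes were called lower, with 0, 1 and 0 higher. Over all genes 3.19% were lower and 8.55% higher. Members could pass the filter through the double-deficient group, such as Prf1 with 223 reads there. Prf1 had 6 reads in the Ifnar1-deficient, 1 in the control and 6 in the Casp1-deficient embryos. Such members can hardly be called other than lower, so the filter sets part of these counts. The neutrophil count was 5 without double-deficient embryo 3. At a mean of 50 reads, which tests fewer genes, the neutrophil count was 3 and the T and NK cell count 2. Of the 12 chemokines and cytokines the study names 3 were higher and 6 lower, beside the same shares over all genes.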

How the data were processed

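RNA of whole E18.5 intestines was sequenced with 3 embryos per genotype. GSNAP alignment to GRCm38, restricted to unique hits, was done by the authors, who deposited raw read counts per gene. The RPKM that the authors also deposited was not used. The RPKM in the text was recomputed, with the widths in the same files and TMM-scaled library sizes. The kit and instrument differ between the paper and the sample labels, and the counting program, its annotation and its use of strand are not given in the sources used here, so overlapping and antisense genes are uncertain. Of 52636 genes listed, 52489 were found in GENCODE M21.

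Counts of all 18 libraries of the set were fitted together with edgeR 4.0.16 in R 4.3.3 (filterByExpr at 10 reads per library and 15 in total, TMM, quasi-likelihood test, Benjamini-Hochberg over 18360 genes, prior count 0.125 for fold changes). The biological coefficient of variation was 0.132. Standard errors were derived as the log2 fold change over the root of its F statistic. Counting intervals are exact at 95% and cover counting error only. Where a group had 0 reads, 3 reads over the group were put in their place for the ratio. The reads of the other group were taken as counted, without their counting error. The script was tested on simulated data.

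Members and lists were chosen with earlier results of these data known. Named were the targeted genes, 24 genes the study names, the 10 largest rises and falls (5 in the other comparisons) with at least 5 CPM and groups that do not overlap, up to 4 called and 2 other members of each list, and called neighbours of the targeted genes, unless the text says that a gene was named later. Some genes that meet these rules are not reported here. Vil1 and Cdx2 are intestinal markers chosen by their known role. Deviations of same-numbered embryos correlated from -0.157 to -0.0212 between the Ifnar1-deficient and the Mlkl control group, from -0.129 to 0.223 with the Casp1-deficient and from -0.0876 to 0.0753 with the double-deficient group. In no comparison were all 3 pairs over 0.1, so numbers were not used as pairs. Alternatives were DESeq2 1.42.0, limma-voom (limma 3.58.1), relative log expression factors, other filters, a prior count of 2, only the 2 groups compared, embryo sex, the replicate block and each library left out.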

Additional observations from a re-analysis of the deposited data

How the results depend on the processing

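Against the Mlkl control, the counts of 1203 higher and 1005 lower genes stayed within 1.5 times of these values under DESeq2 (1165 and 967), limma-voom (1191 and 999), relative log expression factors (1207 and 997), no filter (1320 and 1085) and a fit of only the 2 groups (1152 and 913). A filter at a mean of 50 reads, which tests fewer genes, left 611 lower. Leaving out 1 embryo at a time gave 1110 to 1339 higher and 957 to 1040 lower. Against the Casp1-deficient group the counts were less stable, with 363 higher and 192 lower at a mean of 50 reads, 202 and 196 with only the 2 groups, and 319 to 1107 higher and 237 to 585 lower with 1 embryo left out. Against the double-deficient group they were 309 lower at a mean of 50 reads, and 1384 to 1648 higher and 519 to 611 lower with 1 embryo left out. The replicate number as a block, although it does not pair the embryos, gave 1205 higher and 1002 lower against the control. Directions turned for Gkn2 (log2 fold changes from -6.52 to 4.55 with 1 embryo left out, positive without control embryo 3), Tff1 (-5.44 to 4.94, positive without the same embryo, and 0.56 with limma-voom) and Gzmb (-0.48 to 0.66, and -0.088 with embryo sex as a covariate), and the cause was not tested beyond the values given above. DESeq2 gave no adjusted p to some named genes, which were left out of its comparison. Genes at a few reads per library, such as those of the interferons, are limited by depth.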
